A study of Homo sapiens with 6 samples.

Results

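The genes described here are 41 human genes that equip the absorptive epithelium of the intestine, measured in Huh-7, a hepatocellular carcinoma cell line. They are transcription factors of the intestinal lineage, proteins of the brush border core, adhesion molecules, digestive enzymes, transporters with lipid-binding proteins, and other proteins of the intestinal epithelium. The list was chosen from measured values, because the fold changes of many of its genes between ALKBH5-overexpressing and control cells in these libraries were already known. Differences between the groups are therefore given for the 41 genes as a description, without p-values. All 41 symbols matched an Entrez identifier among the 18030 genes of the count table. A gene was taken as expressed in Huh-7 at a mean of at least 1 FPKM (fragments adjusted for library depth and for the length of the transcript) in the controls. That held for 32 of the 41 genes, and 34 passed the filter on low counts.

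Messenger RNA was sequenced from 2 groups of 3 libraries. The oeALKBH5 group received an ALKBH5 expression plasmid by electroporation, with 3 pulses of 1250 V for 20 ms, and its RNA was taken after 60 h. The control group carries the genotype label WT. All 6 libraries carry the label Untreated, and the same electroporation text stands beside the controls, although the design text of the series calls them parental cells. It is not stated whether controls were pulsed or given a plasmid without ALKBH5, so the effects of ALKBH5 and of plasmid delivery cannot be told apart. The promoter of the plasmid, the share of transfected cells and separate cultures behind the replicate numbers are not stated either. The p-values given for other genes thus measure a spread between libraries that may be technical.

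ALKBH5, the demethylase that removes N6-methyladenosine from RNA, was read first as a check of the labels (chromosome 17, 18183078 to 18209954, plus strand, GRCh38). Its level was 169, 133 and 110.4 CPM (counts scaled to library size) in oeALKBH5 replicates 1, 2 and 3 and 70.5, 74.2 and 75.5 CPM in control replicates 1, 2 and 3. Each oeALKBH5 library lay above each control, and the log2 fold change was 0.90 with an SE of 0.177 (adjusted p = 0.0154, edgeR). ALKBH5 no longer passed when control replicate 2 (adjusted p = 0.0529) or 3 (adjusted p = 0.0589) was left out, or under a block on replicate number (adjusted p = 0.0538). Library totals were 18607084 to 18826479 estimated counts in oeALKBH5 and 19265686 to 19378030 in control. Across 14168 genes tested with edgeR's quasi-likelihood test, 42.8% passed an adjusted p of 0.05, 22% lower and 20.8% higher in oeALKBH5. That is 3114 genes lower and 2948 higher, a split that became 2047 and 4266 with library size alone and 1977 and 3535 with limma on log2(FPKM + 1). The 10 hepatocyte markers were all expressed and were all lower in oeALKBH5, with a summed level of 10400 to 11400 FPKM against 16270 to 16780 FPKM in control.

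As background, the absorptive cell of the small intestine carries a brush border, a dense array of microvilli. Each microvillus holds a bundle of actin filaments cross-linked by villin, plastin and related proteins and tied to the membrane by myosin 1a. Protocadherins link neighbouring microvilli at their tips, and harmonin and a class VII myosin anchor those links inside the cell. The membrane carries the enzymes that finish the digestion of sugars, peptides and phosphate esters and the carriers that take up their products. Factors of the CDX, HNF4 and GATA families bind the promoters of many of these genes. Hepatocytes share HNF4 and GATA factors, and their bile canaliculi also hold microvilli with villin, aminopeptidase N, DPP4 and CEACAM1. In liver, CDX2 is a marker of intestinal differentiation rather than of the hepatocyte.

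The name of the list was checked against 5 markers of the enterocyte. CDX2 (111 FPKM), VIL1 (31.1 FPKM), ALPI (18.9 FPKM) and SI (2.24 FPKM) were expressed in the controls as means of 3 libraries, whereas FABP2, the intestinal fatty acid-binding protein, stood at 0.157 FPKM. Huh-7 therefore held the mRNA of 4 of the 5 markers, and the genes are described as a list and not as the profile of an enterocyte. In bulk RNA, fewer cells with a transcript and less of it in each cell cannot be told apart.

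Promoter sequence was read for 31 of the 41 genes as the 250 bases before a RefSeq start site (GRCh38.p14). Short motifs of the lineage factors were searched on both strands. The CDX motif CAATAAA occurred in 3 genes (CDX2, MYO1A and SI), 9.7% of the members against 3.5% of 14233 genes. The HNF4 motif CAAAGTCCA occurred in 3 genes (MUC13, MYO1A and SDCBP2), 9.7% against 0.4%. The GATA motif AGATAA occurred in 6 genes (CDX2, FABP2, PLS1, RBP2, REG4 and TM4SF20), 19.4% against 8.6%. In MYO1A the CDX and HNF4 matches stand before different annotated start sites. None of the motifs contains another. Of the 17 lower members with promoter sequence, 3 held the CDX letters, 3 the HNF4 letters and 2 the GATA letters. A gene was counted if any of its windows matched. The 31 members had 43 windows, so genes with more start sites had more chances of a match. These are matches of letters and not measured binding sites. The 3 promoters with the CDX letters follow, from 5′ to 3′ on the strand of the gene, to show where the letters stand in members that were lower in oeALKBH5. Capitals mark the CDX match. They lie on the minus strand, at chr3:165078497-165078746 for SI, chr13:27969316-27969565 for CDX2 and chr12:57051199-57051448 for MYO1A.
SI: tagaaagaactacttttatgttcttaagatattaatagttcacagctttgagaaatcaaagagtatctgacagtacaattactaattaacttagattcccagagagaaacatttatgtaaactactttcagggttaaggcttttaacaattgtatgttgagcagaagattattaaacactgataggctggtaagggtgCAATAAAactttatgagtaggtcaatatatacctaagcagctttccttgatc
CDX2: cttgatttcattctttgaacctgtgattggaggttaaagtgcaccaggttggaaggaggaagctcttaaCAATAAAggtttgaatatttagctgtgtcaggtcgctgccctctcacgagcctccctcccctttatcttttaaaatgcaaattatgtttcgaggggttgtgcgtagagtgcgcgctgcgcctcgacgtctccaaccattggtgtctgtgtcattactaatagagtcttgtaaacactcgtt
MYO1A: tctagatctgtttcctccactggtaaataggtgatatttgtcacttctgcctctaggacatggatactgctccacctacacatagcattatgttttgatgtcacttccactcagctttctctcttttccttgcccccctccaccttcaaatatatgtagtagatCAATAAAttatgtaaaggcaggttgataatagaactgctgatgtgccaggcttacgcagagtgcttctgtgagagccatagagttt
The CDX match begins 52 bases before the start in SI, 181 bases in CDX2 and 86 bases in MYO1A.

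Levels of the 32 expressed genes in the controls spanned 1.4 FPKM (MYO7B) to 273 FPKM (RBP2). RBP2, the cellular retinol-binding protein of the enterocyte, and PRAP1, a small secreted protein of gut and liver, led the list at 273 ± 9.84 and 224 ± 12.2 FPKM (SD, n = 3 each). Next came CDX2 at 111 ± 7.84 FPKM and CDH17, the liver-intestine cadherin, at 95.5 ± 2.05 FPKM. Lowest among the expressed genes, besides MYO7B, were SLC15A1 at 1.98 ± 0.288 FPKM, SI at 2.24 ± 0.252 FPKM and TMPRSS2 at 2.73 ± 0.166 FPKM. The plot of levels shows the order of the 32 genes in both groups. The 9 genes under 1 FPKM in control were CDX1, GPA33, CEACAM5, MEP1B, SLC5A1, FABP2, KRT20, TM4SF20 and REG4.

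**Figure D1:**
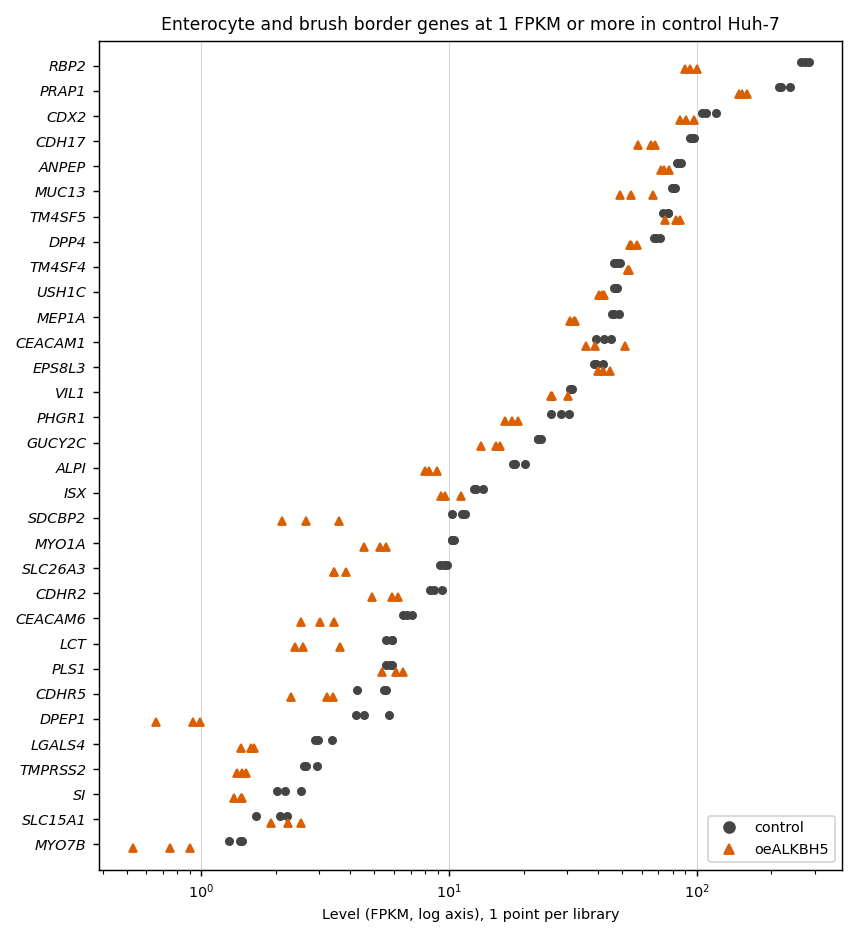
Level of each of the 32 expressed genes in FPKM on a log axis, with 1 point per library (grey circles control, orange triangles oeALKBH5), ordered by the control mean. Control levels run from 1.4 FPKM for MYO7B to 273 FPKM for RBP2, and for RBP2, SDCBP2 and DPEP1 the triangles lie far left of the circles.

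Of the 34 genes tested, 26 passed the threshold lower in oeALKBH5, where 22% of all genes tested did. In those 26 genes each oeALKBH5 library lay below each control, an ordering seen for 27% of all genes tested. With edgeR 0 of the 34 passed higher, against 20.8% of all genes. No member was higher at an unadjusted p under 0.05 or by DESeq2 or limma-voom, while limma on log2(FPKM + 1) called 1, TM4SF4. TM4SF4 was also the 1 tested member whose oeALKBH5 libraries all lay above the controls, which held for 25.8% of all genes. A log2 fold change of -1 or below, at least a halving, was reached by 9 of the 26 genes, against 0.911% of all genes tested. The median log2 fold change was -0.65 over the 34 genes and 0.0062 over all genes. Because the list was chosen with these changes known, nothing is read from the difference to the background. The summed level of the 41 genes was 960 to 1038 FPKM in oeALKBH5 and 1408 to 1465 FPKM in control. The most abundant genes weigh most in this sum. RBP2 had means of 94.6 FPKM in oeALKBH5 and 273 FPKM in control, and PRAP1 153 and 224 FPKM.

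**Figure D2:**
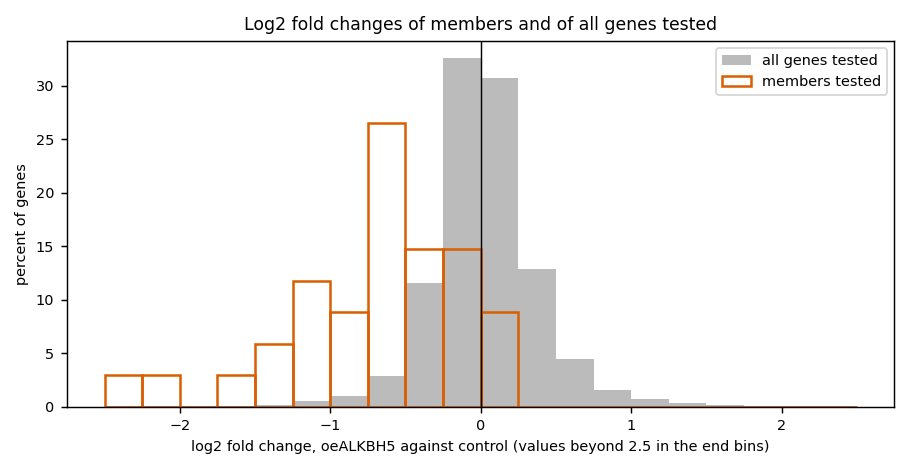
Distribution of log2 fold changes, oeALKBH5 against control, in bins of 0.25, as percent of 14168 genes tested (grey) and of the 34 tested members (orange outline). The members lie mostly left of 0, around a median of -0.65, and all genes around 0.0062.

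The genes spanned a wide range of change within and between roles. In the following, 3 values are those of replicates 1, 2 and 3, in CPM, and a log2 fold change is oeALKBH5 against control from edgeR. CPM are not scaled by transcript length, so they compare libraries and not genes. Where groups are called separate, 27% of all genes tested also had each oeALKBH5 library below each control.

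**Figure D3:**
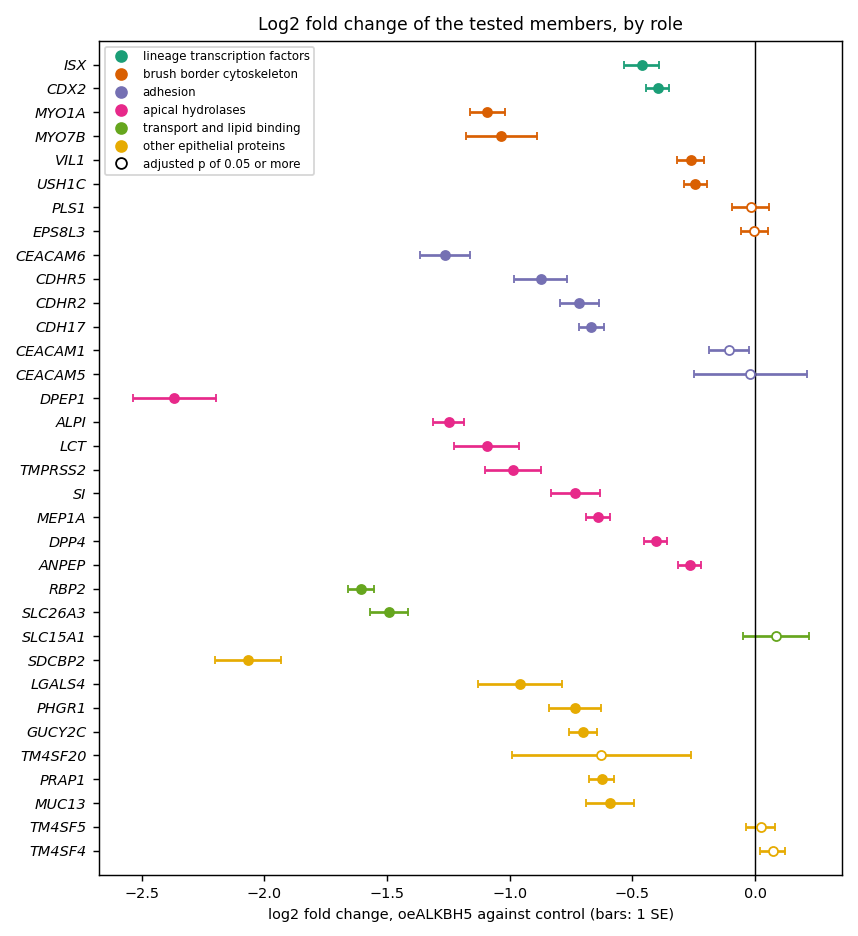
Log2 fold change of the 34 tested genes with bars of 1 SE, coloured by role and ordered within it. Open symbols had an adjusted p of 0.05 or more. Values run from -2.37 for DPEP1 to 0.09 for SLC15A1, and all 8 tested hydrolases lie left of 0.

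Among the lineage transcription factors, CDX2 and ISX were both lower by less than 1 on the log2 scale. CDX2, the homeobox factor that specifies intestinal epithelium, stood at 213, 210.3 and 209.5 CPM in oeALKBH5 and 296, 265 and 272 CPM in control, a log2 fold change of -0.40 (SE 0.0481). The 3 oeALKBH5 libraries lay within 3.2 CPM of each other and below all controls. ISX, an intestine-specific homeobox factor of the retinoid pathway, stood at 33, 28 and 27.5 CPM in oeALKBH5 and 40.1, 42.5 and 39.3 CPM in control, a log2 fold change of -0.46 (SE 0.0704). Its groups did not overlap. CDX1, the other CDX factor of the intestine, was close to absent, with estimated counts of 0, 0 and 1 across oeALKBH5 libraries and of 0, 2 and 0 across controls.

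In the cytoskeleton of the brush border, 4 of 6 genes passed lower, where 22% of all genes tested did. PLS1 and EPS8L3 did not pass. MYO1A, the myosin that ties the actin core to the microvillus membrane, stood at 18.4, 19.1 and 16 CPM in oeALKBH5 and 38, 37.9 and 37.9 CPM in control, a log2 fold change of -1.09 (SE 0.0712). The 3 controls lay within 0.14 CPM of each other, and the groups did not overlap. The gene lies on chromosome 12 at 57028517 to 57051198, minus strand (this and the following positions are from GENCODE release 29, GRCh38). VIL1, villin, which bundles and severs actin, stood at 189, 162 and 164 CPM in oeALKBH5 and 209, 203 and 206 CPM in control, a log2 fold change of -0.26 (SE 0.0545). Its oeALKBH5 replicate 1 came near the controls and the other two lay lower. PLS1, the intestinal plastin that bundles actin, stood at 21.8, 22.9 and 19.2 CPM in oeALKBH5 and 21.1, 22 and 21.7 CPM in control, with a log2 fold change of -0.02 (SE 0.0761). EPS8L3, of the EPS8 family of actin regulators, stood at 93.9, 87.1 and 84 CPM in oeALKBH5 and 93.6, 84.7 and 87.2 CPM in control, with a log2 fold change of -0.0025 (SE 0.0548). In both, the libraries of the groups overlapped.

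The 4 members of the intermicrovillar link were lower, to unequal degrees. CDHR2 and CDHR5 are the protocadherins that bridge microvillus tips. CDHR2 stood at 25.8, 24.3 and 20.4 CPM in oeALKBH5 and 41.5, 36.4 and 38.1 CPM in control (log2 fold change -0.72, SE 0.0797), and CDHR5 at 8.99, 7.78 and 6.78 CPM in oeALKBH5 and 15.4, 14.8 and 12.9 CPM in control (log2 fold change -0.87, SE 0.108). Their cytoplasmic partners are MYO7B, the motor of the complex, and USH1C, the scaffold harmonin. MYO7B stood at 5.98, 4.83 and 3.55 CPM in oeALKBH5 and 10.2, 8.92 and 10.3 CPM in control (log2 fold change -1.03, SE 0.145), and USH1C at 97.3, 97.8 and 93.8 CPM in oeALKBH5 and 115, 114 and 113 CPM in control (log2 fold change -0.24, SE 0.0464). No gene of the 4 had overlapping groups, and 27% of all genes tested were likewise separate and lower. In CDHR2, CDHR5 and MYO7B the highest oeALKBH5 library was replicate 1 and the lowest replicate 3. Beside the members, ANKS4B, the further scaffold of the complex, was at 17.9, 19.6 and 18.3 CPM in oeALKBH5 and 24.1, 23.4 and 26.5 CPM in control (log2 fold change -0.41, SE 0.0743, edgeR adjusted p = 1.85e-04). It was named after its values were seen. CALML4, a calmodulin-like light chain of MYO7B, was at 99.3, 106 and 104 CPM in oeALKBH5 and 144, 142 and 150.2 CPM in control (log2 fold change -0.50, SE 0.0476, edgeR adjusted p = 8.14e-08). These genes were chosen or named with their values known, and 22% of all genes tested were called lower, so their shared direction is a description.

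**Figure D4:**
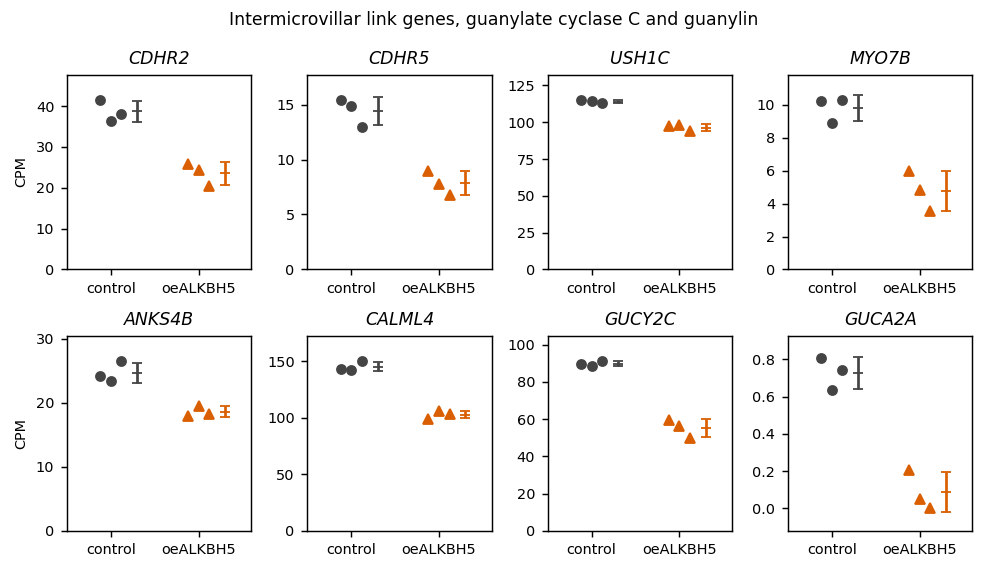
CPM per library of 6 intermicrovillar link genes, of guanylate cyclase C (GUCY2C) and of its ligand guanylin (GUCA2A), with control in grey and oeALKBH5 in orange; the bars are mean ± SD of 3 libraries. In each panel the 3 oeALKBH5 libraries lie below the 3 controls, an ordering seen for 27% of all genes tested.

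Of the other adhesion genes, CDH17 and CEACAM6 passed lower, CEACAM1 and CEACAM5 did not pass, and GPA33 was not tested. CDH17, which joins neighbouring intestinal cells, stood at 237, 228 and 204 CPM in oeALKBH5 and 348, 352 and 361 CPM in control (log2 fold change -0.67, SE 0.0517). Its controls spread over 13 CPM, and the gap from the lowest of them to the highest oeALKBH5 library was 111 CPM. The CEACAM genes encode immunoglobulin-like adhesion proteins and lie on chromosome 19. CEACAM6 (41750977 to 41772208, plus strand) stood at 8.47, 6.12 and 7.41 CPM in oeALKBH5 and 17.5, 17 and 18.4 CPM in control (log2 fold change -1.26, SE 0.103), 2.4-fold lower. CEACAM5 (41708585 to 41729798, plus strand) stood at 1.46, 1.76 and 2.35 CPM in oeALKBH5 and 2.15, 1.48 and 2.02 CPM in control (log2 fold change -0.02, SE 0.23). CEACAM1 (42507304 to 42561234, minus strand) stood at 144, 120.5 and 111 CPM in oeALKBH5 and 137, 129.6 and 138 CPM in control (log2 fold change -0.11, SE 0.0823). Both of the last had overlapping groups, and without oeALKBH5 replicate 1 CEACAM1 passed lower at -0.22. The 3 genes are similar in sequence, and their estimated counts were not whole numbers. Reads may thus have been divided with other genes, and the individual levels are uncertain. GPA33, a surface antigen of intestinal epithelium, held at most 5 estimated counts in any library.

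All 8 tested hydrolases of the apical membrane were called lower, where 22% of all genes tested were. Their median log2 fold change was -0.86. The members were chosen with these changes known, so the count is a description. DPEP1, a dipeptidase anchored at the membrane, had the largest log2 fold change in size of the 34 tested genes. It stood at 1.87, 1.3 and 1.67 CPM in oeALKBH5 and 7.74, 9.87 and 7.43 CPM in control, 5.16-fold lower (log2 fold change -2.37, SE 0.169). The lowest control stood 3.97 times above the highest oeALKBH5 library. DPEP1 lies on chromosome 16 at 89613308 to 89638456, plus strand. ALPI, intestinal alkaline phosphatase, stood at 27.8, 25.7 and 25.1 CPM in oeALKBH5 and 66.9, 58.9 and 60.9 CPM in control, 2.38-fold lower (log2 fold change -1.25, SE 0.0645). Its oeALKBH5 libraries lay within 2.71 CPM of each other, 31.1 CPM or more below the controls. ALPI lies on chromosome 2 at 232456123 to 232460032, plus strand. The estimated counts of ALPI and DPEP1 were not whole, so some of their reads may have been shared with other genes. DPEP1 held only 36, 25 and 32.1 estimated counts in oeALKBH5 replicates 1, 2 and 3.

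Of the disaccharidases, the members LCT and SI were both lower. LCT, lactase, stood at 22, 15.5 and 14.4 CPM in oeALKBH5 and 37.9, 35.5 and 37.6 CPM in control, 2.13-fold lower (log2 fold change -1.09, SE 0.132). SI, sucrase-isomaltase, which cleaves sucrose and starch fragments and whose promoter is printed above, stood at 8.42, 8.41 and 7.93 CPM in oeALKBH5 and 13.4, 15.4 and 12.4 CPM in control, 1.66-fold lower (log2 fold change -0.73, SE 0.1). Neither gene's groups overlapped. LCT varied more among the oeALKBH5 libraries, with replicate 1 highest. LCT lies on chromosome 2 at 135787840 to 135837180, minus strand.

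The log2 fold changes of the next peptidases were smaller in size than those of LCT and SI. MEP1A, the meprin alpha subunit, stood at 83, 85.5 and 87.7 CPM in oeALKBH5 and 139, 129 and 132 CPM in control (log2 fold change -0.64, SE 0.0488). DPP4, which removes dipeptides from peptide ends, stood at 189, 178 and 179 CPM in oeALKBH5 and 240.3, 234 and 249 CPM in control (log2 fold change -0.40, SE 0.0461). ANPEP, aminopeptidase N, stood at 260.0, 269.5 and 254 CPM in oeALKBH5 and 324, 306 and 312 CPM in control (log2 fold change -0.27, SE 0.0451). In all 3 the groups were separate, and ANPEP had the smallest change of the tested hydrolases. TMPRSS2, a serine protease of epithelial membranes, was nearer LCT, at 4.73, 4.51 and 4.43 CPM in oeALKBH5 and 8.7, 9.55 and 8.87 CPM in control (log2 fold change -0.99, SE 0.114). MEP1B, the meprin beta subunit, held 4.27 to 10.2 estimated counts in all 6 libraries and was not tested.

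Among genes of transport and lipid binding, RBP2 and SLC26A3 were lower and SLC15A1 did not pass. RBP2, which binds retinol after its uptake, was the most abundant member in control. It stood at 56.3, 58.2 and 63.6 CPM in oeALKBH5 and 182, 173 and 187 CPM in control, 3.04-fold lower (log2 fold change -1.61, SE 0.0539). The decrease was alike in the 3 oeALKBH5 libraries, and replicate 3 was the highest here. RBP2 lies on chromosome 3 at 139452884 to 139480747, minus strand. SLC26A3, the chloride-bicarbonate exchanger of the colon and ileum, stood at 10.6, 9.45 and 9.55 CPM in oeALKBH5 and 27.1, 28.4 and 27.8 CPM in control, 2.82-fold lower (log2 fold change -1.49, SE 0.0778). Its controls lay within 1.27 CPM of each other and the oeALKBH5 libraries within 1.1 CPM. SLC26A3 lies on chromosome 7 at 107765467 to 107803225, minus strand. SLC15A1, the peptide carrier PEPT1, stood at 7.54, 6.64 and 5.79 CPM in oeALKBH5 and 5.26, 6.97 and 6.58 CPM in control (log2 fold change 0.09, SE 0.133), with overlapping groups. SLC5A1, the sodium-glucose cotransporter, held 1 estimated count in each group over 3 libraries. The counts of FABP2 were 1, 1.51 and 2.79 in oeALKBH5 libraries against 4.02, 10.65 and 5.07 in controls, too few to pass the filter.

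Of the other epithelial proteins, 6 of 9 tested genes were called lower, where 22% of all genes tested were. The 3 that did not pass all belong to the TM4SF family. SDCBP2, syntenin-2, a PDZ-domain adaptor at the membrane, had the largest log2 fold change in size of the 9 tested. It stood at 4.99, 2.91 and 3.76 CPM in oeALKBH5 and 17.2, 16.5 and 15.2 CPM in control, 4.19-fold lower (log2 fold change -2.07, SE 0.135). The oeALKBH5 libraries differed among themselves by up to 1.72-fold, and all lay well below the lowest control. SDCBP2 lies on chromosome 20 at 1309909 to 1329239, minus strand. LGALS4, galectin-4, a lectin that organises apical lipid rafts, stood at 1.92, 1.92 and 1.93 CPM in oeALKBH5 and 3.6, 4.07 and 3.56 CPM in control (log2 fold change -0.96, SE 0.171). GUCY2C, guanylate cyclase C, the intestinal receptor of guanylin and of bacterial heat-stable enterotoxin, stood at 59.3, 56.1 and 50.1 CPM in oeALKBH5 and 89.5, 88.6 and 91 CPM in control (log2 fold change -0.70, SE 0.0579). In both the groups were separate.

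GUCA2A, which encodes guanylin, is not a member and was named after its values were seen. Its estimated counts were 4, 1 and 0 across oeALKBH5 libraries and 15, 12 and 14 across controls, giving a log2 fold change of -2.98 (SE 0.581) and an adjusted p = 3.67e-04 by edgeR. The receptor and this ligand were thus both lower, the ligand from a level close to the detection limit.

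MUC13, a membrane mucin, stood at 184, 149 and 136 CPM in oeALKBH5 and 237, 237 and 232 CPM in control (log2 fold change -0.59, SE 0.0974). PRAP1 stood at 107, 102 and 100.5 CPM in oeALKBH5 and 170.5, 154 and 154 CPM in control (log2 fold change -0.63, SE 0.0515), and PHGR1, a short histidine- and glycine-rich protein of gut epithelium, at 7.12, 6.7 and 6.42 CPM in oeALKBH5 and 11.4, 12 and 10.2 CPM in control (log2 fold change -0.73, SE 0.105). The groups did not overlap in any of the 3, and MUC13 had the widest relative spread among them in oeALKBH5. The TM4SF genes encode small multi-pass membrane proteins. TM4SF4 stood at 73.8, 73.7 and 75.3 CPM in oeALKBH5 and 73.3, 70 and 68.7 CPM in control (log2 fold change 0.07, SE 0.0501), and TM4SF5 at 48.2, 55.1 and 53.9 CPM in oeALKBH5 and 52.8, 52.1 and 49.8 CPM in control (log2 fold change 0.02, SE 0.0592). Both were abundant, and TM4SF4 passed higher with library size alone, at 0.15 on the log2 scale. TM4SF20 stood at 0.78, 0.571 and 0.261 CPM in oeALKBH5 and 0.806, 0.95 and 0.743 CPM in control (log2 fold change -0.63, SE 0.364), under 1 FPKM in both groups. KRT20, a keratin of mature intestinal epithelium, had estimated counts of 1, 1 and 0 across oeALKBH5 libraries against 6, 3 and 3 across controls. REG4, a secreted lectin, had counts of 4, 4 and 0 in oeALKBH5 against 1, 2 and 2 in control, and neither gene was tested.

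The oeALKBH5 libraries did not stand highest or lowest equally often over the lower members. Replicate 1 was the highest of the 3 in 20 of the 26 lower members (76.9%), and replicate 3 was the lowest in 17 (65.4%). Over all 3114 genes called lower, the order was mostly the reverse. There replicate 1 was the highest in 24.1% and the lowest in 50.6%. Replicate 3 was the lowest in 20.4% and the highest in 53.1%. The 26 genes were read in the same 3 libraries and are not independent, so these counts are a description. Some gaps were small, as for SI, at 8.42, 8.41 and 7.93 CPM in replicates 1, 2 and 3. Replicate 1 also had the highest ALKBH5 level (169 CPM) and replicate 3 the lowest (110.4 CPM). The lower members thus had their smallest decrease mostly in the library with the most ALKBH5 mRNA. The part of ALKBH5 level, transfection or library handling in this was not tested. In RBP2, MEP1A, ANPEP, MYO1A, USH1C and LGALS4 replicate 1 was not the highest, as the plot of single libraries shows.

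**Figure D5:**
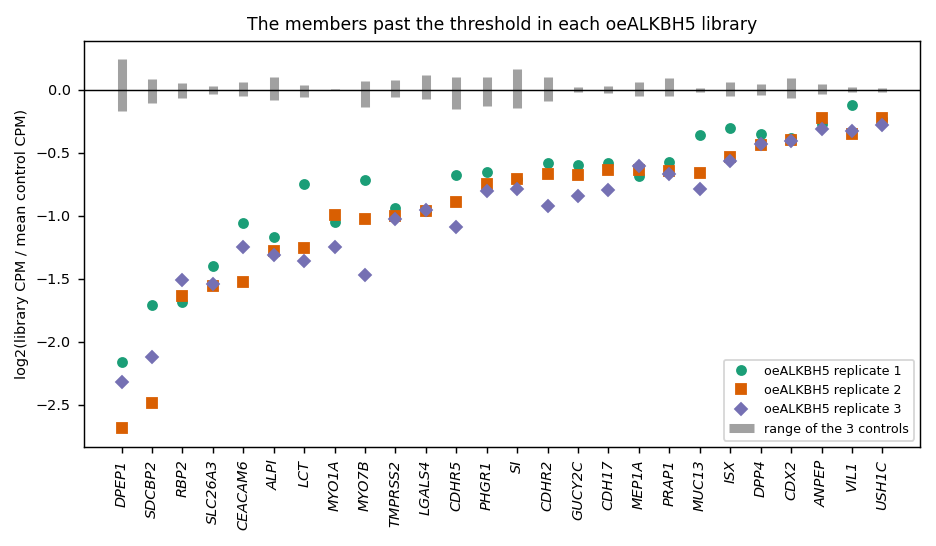
Log2 ratio of each oeALKBH5 library to the mean control CPM for the 26 lower members, ordered by fold change, with the range of the 3 controls as grey bars. Green circles (replicate 1) are the highest of the 3 in 20 of 26 genes, and no oeALKBH5 point reaches the control range.

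Other genes of the same biology were counted in lists grouped by function, which were chosen with earlier results of these data known. Their counts are therefore a description. Over all genes tested, 22% were called lower and 20.8% higher. A value in parentheses after a gene or median is a log2 fold change. Of 16 tested transcription factors of intestine and endoderm, 8 were lower and 1 higher, with a median log2 fold change of -0.13. KLF4, a factor of differentiated epithelium (log2 fold change -0.82, SE 0.0737, edgeR adjusted p = 3.10e-08), and PRDM1 (log2 fold change -0.64, SE 0.0831, edgeR adjusted p = 4.59e-06) were lower. FOXA3, a forkhead factor of liver and gut, was higher (log2 fold change 0.20, SE 0.0596, edgeR adjusted p = 0.0103). Endodermal factors of the HNF4 and GATA families, named after their values were seen, had log2 fold changes nearer 0 than KLF4. Their values were, for HNF4A, -0.12 (SE 0.042), for GATA4 -0.16 (SE 0.0454), for GATA6 -0.13 (SE 0.052) without passing, and for HNF4G -0.52 (SE 0.0884).

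Of 23 other tested genes of the microvillus and apical cytoskeleton, 13 were lower and 1 higher (median -0.24). MYO5B, the myosin that carries vesicles to the apical membrane, was among the lower (log2 fold change -0.87, SE 0.0749, edgeR adjusted p = 1.89e-08). The mucin MUC1 was the higher one (log2 fold change 0.94, SE 0.181, edgeR adjusted p = 3.21e-04). Its control mean of 0.67 FPKM was under the 1 FPKM taken as expressed. Of 11 other apical hydrolases, 5 were lower and 2 higher (median -0.43). The carboxylesterase CES2 (-0.34) was among the lower, and the ectonucleotidase ENPP3 (0.52) and maltase-glucoamylase MGAM (0.38) were higher. MGAM no longer passed when control replicate 1 (adjusted p = 0.0703) or 3 (adjusted p = 0.0639) was left out, by edgeR. MGAM and SI, the paired starch-digesting enzymes, thus differed in sign. Of 20 other absorption genes, 10 were lower and 1 higher (median -0.20). FABP1, the liver fatty acid-binding protein (-0.88), and MTTP, which loads lipid onto apolipoprotein B (-0.49), were lower. The iron reductase CYBRD1 was higher (0.84), at means of 0.63 FPKM in oeALKBH5 and 0.33 FPKM in control, both under 1 FPKM.

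Markers of neighbouring cell types were read beside the members. Of 12 listed colonocyte genes, 6 were tested. All 6 were lower (median -0.94), among them carbonic anhydrase CA2 (-0.74) and HSD17B2 (-0.37), where 22% of all genes tested were lower. AQP8, at 5 to 25 estimated counts per library, and GUCA2A, at 0 to 15, were near the detection limit. Of 18 listed genes of secretory intestinal cells, 9 were tested and 5 were lower (median -0.52), including AGR2 (-1.05) and TFF3 (-0.82). MUC2 and CHGA held at most 3 estimated counts in any library, and CLCA1, DEFA5 and DEFA6 were not among the genes counted. LYZ, lysozyme, stood at 0.18 without passing in the edgeR fit. It passed higher by DESeq2 (adjusted p = 0.0315), with library size alone, by limma on log2(FPKM + 1) and log2(FPKM + 0.1), with the replicate block and without oeALKBH5 replicate 1. Of 8 listed crypt stem cell genes, 5 were tested. LGR5 (0.75) and AXIN2 (0.81) were among 3 higher, EPHB2 (-0.73) was the 1 lower, and RNF43 (-0.10) did not pass. The control mean of AXIN2 was 0.72 FPKM, under the 1 FPKM taken as expressed. The stem cell markers ASCL2 and OLFM4 held at most 1 estimated count in any library, and SMOC2 was not among the genes counted. The 10 hepatocyte genes had a median of -0.59, near that of the members, with AHSG at -0.93, SERPINA1 at -0.86, APOA2 at -0.80 and AFP at -0.69. Of 7 cholangiocyte genes, EPCAM (-0.98), CLDN4 (-0.95) and KRT19 (-0.57) were lower and SPP1 (0.55) and SOX9 (0.30) higher. The summed level of the colonocyte list was 38.3 to 40.02 FPKM in oeALKBH5 and 53 to 54.6 FPKM in control, and that of the cholangiocyte list 185 to 204 FPKM and 244 to 246 FPKM. The part of any change in cell type or state in the members' values was not tested.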

How the data were processed

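RNA was measured in 6 Huh-7 libraries. The authors deposited estimated counts and FPKM values for 80668 RefSeq transcripts of 18030 genes. The submitters' processing notes name GRCh38.p13, RSEM 1.2.8, HISAT2 2.1.0 and Bowtie2 2.2.5. Their filters and use of strand were not given in the sources used. Because a model splits reads between similar transcripts, estimated counts of similar genes are uncertain individually.

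Transcripts with the same Entrez identifier were summed, and counts were rounded. edgeR 4.0.16 in R 4.3.3 was run with TMM scaling, a minimum count of 10 in its expression filter, and a robust quasi-likelihood test of group, two-sided. Benjamini-Hochberg adjustment covered 14168 genes, with a threshold of 0.05. The SE was derived from the fold change and its F statistic. CPM used TMM-scaled totals. Libraries differed from each other by more than counting noise. The script was tested on simulated data.

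The 41 members and 9 other gene lists were chosen with earlier results of these data known. ALKBH5 and all members were named, and from each list up to 2 genes that rose and 2 that fell by smallest p, plus the 2 most abundant in lists of cell types. Alternatives were other scalings and filters, DESeq2 1.42.0, limma-voom, limma 3.58.1 on log2(FPKM + 1) and log2(FPKM + 0.1), a replicate block, and leaving out each library. Some genes of the other lists are counted in them but are not reported here by name.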

Additional observations from a re-analysis of the deposited data

How the results depend on the processing

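Of the 26 members lower in oeALKBH5, 25 passed lower under all 17 alternatives, and 0 changed sign. VIL1 did not pass with limma on log2(FPKM + 1) without a filter (log2 fold change -0.18). The median log2 fold change of the tested members ran from -0.73 to -0.36. Library size alone and limma on log2(FPKM + 1), on log2(FPKM + 0.1) and on log2(FPKM + 1) without a filter each called 1 member higher, TM4SF4, against 0 in the edgeR fit. Genes called lower across the table numbered 2047, 1977, 1974 and 1799 under those 4 settings, against 3114; with library size alone 4266 were higher. Members with a log2 fold change of -1 or below numbered 5 instead of 9 with limma on log2(FPKM + 1), with and without the filter. Leaving out 1 library called 26 to 27 members. With the replicate number as a block, 26 members passed and 6469 genes in all. Same-numbered libraries correlated at 0.0171, 0.0232 and 0.0127 in their deviations, each best with its own number; the labels state no shared batch. No block call among the members changed. The 7 untested members had few reads, with a mean at or under 8.13 estimated counts in each group. The cause of the differences between settings was not tested.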

Other observations

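The members comprise 102 transcripts, and 16 members have a single one. For several members the deposited split between transcripts differed between libraries of one group. The SI transcript NM_001041.4 took 0%, 94.4% and 93.3% of the gene's estimated counts in oeALKBH5 replicates 1, 2 and 3 and 100% in each control. The SDCBP2 transcript NM_080489.5 took 58.8%, 0% and 100% in oeALKBH5 and 86.1%, 82.5% and 86.2% in control. For MYO7B the transcript NM_001080527.1 took 0%, 100% and 46.7% in oeALKBH5 and 0%, 78.5% and 0% in control. Gene sums were whole numbers, within 0.02 counts, in all 6 libraries for 27 members. For the other 14, VIL1, CDHR2, CDH17, ALPI and DPEP1 among them, the sums were not whole. Reads may there have been divided also with transcripts of other genes, which was not tested.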
